A study of Canis lupus familiaris with 4 samples.

Results

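Annexin genes were followed on the expression arrays of MDCK strain II cells, a canine kidney epithelial line, with and without knockdown of HIF2α. The genes were chosen by symbol from a list of 10 annexins, and 9 of them have a probe set that carries 1 gene symbol, of 15115 such genes on the array. These 9 genes, *ANXA1*, *ANXA2*, *ANXA3*, *ANXA4*, *ANXA5*, *ANXA6*, *ANXA7*, *ANXA11* and *ANXA13*, hold 21 probe sets. No probe set carries the symbol *ANXA8*, which was dropped. The list was drawn up with earlier results of these arrays known, so that all values below describe the arrays and none is tested.

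The 4 groups were HIF2α-KD cells in hypoxia (1% O2), control cells in hypoxia, HIF2α-KD cells in normoxia (16% O2) and control cells in normoxia. All cells were kept in normoxia for 24 h and then at either oxygen level for a further 24 h. According to the study's methods, the knockdown cells express an shRNA against *HIF2A* (*EPAS1*) from a retrovirus and were selected with puromycin, and the control cells received an empty shRNA cassette. The sample labels call the control cells wild type. They leave the knockdown line unnamed, and the study's text gives it as HIF2α-KD#1 for normoxia. Whether that line is a clone or a pool is not given in the sources used here. Each group was measured on 1 array, so no error or p-value can be attached to a difference between arrays, and differences between the cell lines, the cultures and the hybridisations cannot be told apart.

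Annexins are cytosolic proteins that bind acidic phospholipids of membranes when calcium rises. They share a conserved core of repeats that holds the calcium sites, while the N-terminal tail differs between members and binds partners such as the small S100 proteins. In epithelia they take part in membrane traffic, in the link between membranes and actin and in the repair of membrane wounds. *ANXA13* encodes an annexin found mainly in intestinal and kidney epithelium, which is anchored to membranes by a myristoyl group and has a splice form known in MDCK cells for its part in transport to the apical surface.

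*EPAS1*, the target of the knockdown, was read first. Its intensity was 32.6 on the HIF2α-KD array and 116 on the control array in hypoxia, and 47.9 on the array labelled HIF2α-KD and 44.6 on the control array in normoxia. In hypoxia the knockdown array was thus lower for the target, by 1.45 on the log2 scale used below, whereas in normoxia it was 0.08 higher, and the normoxic array is named by its label throughout. The normoxic readings come from 1 dim probe set and lie about at the level of the leukocyte genes given further on, and the other *EPAS1* probe set was under the background on all arrays (1.0 to 6.39), so that the arrays say little about the target in normoxia. The oxygen labels were read from genes that hypoxia is known to induce. Of 10 such genes, 7 were at least 2-fold higher in hypoxia than in normoxia under each cell line label. Of 10 kidney epithelial genes on the array, 6 lay above the background on all 4 arrays. Among them were the keratin gene *KRT18* (13256 to 13868) and *EPCAM* (10064 to 11719), whereas *CDH16*, *PODXL* and *AQP3* read 89.1 to 180. The collecting duct water channel gene *AQP2* (1.0 to 6.74), *SLC12A1* and *UMOD* stayed below the background on all arrays. The background was taken as the 95th percentile of 63 reporter probe sets, which stand for no canine gene, and was 20.6 to 27.2. Most markers of other cell types were dim. Of 7 fibroblast genes only *PDGFRA* lay above the background on all arrays, at 75.7 on the HIF2α-KD array and 145 on the control array in hypoxia and at 33.8 and 31.5 on the normoxic arrays in the same order of lines, and the summed intensity of the list was 149 and 214 in hypoxia and 106 and 103 in normoxia. The collagen genes *COL1A1*, *COL1A2* and *COL3A1* stayed below the background. Of 4 endothelial genes, only *CDH5* exceeded it on all arrays (88.8 to 117), with a summed intensity of 111 to 143. Of 4 proximal tubule genes, 2 exceeded it on all arrays. The brighter was *CUBN*, for an endocytic receptor, at 307 on the HIF2α-KD array and 432 on the control array in hypoxia and at 214 and 183 in normoxia in that order, so that it was 1.17 higher in hypoxia in control cells, and the list summed to 375 on the HIF2α-KD array and 519 on the control array in hypoxia and to 287 and 262 in normoxia in that order. The 4 leukocyte genes read 26.2 to 45.3, with sums of 131 to 154, which shows how far above the reporters a gene can lie that kidney epithelium should lack. The part of other cell types in the annexin values was not tested.

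*ANXA13* had the largest difference of any annexin in a single comparison. Its single probe set, Cfa.3796.1.A1_s_at, had an intensity of 355 on the HIF2α-KD array and 323 on the control array in hypoxia, and of 578 on the array labelled HIF2α-KD and 1170.3 on the control array in normoxia. The control array in normoxia stands far above the other three, the array labelled HIF2α-KD in normoxia lies between, and the hypoxic arrays are the lowest and close to each other. Differences are given on the scale of log2(intensity + 16), on which dim probe sets show less than their full change. In control cells *ANXA13* was lower in hypoxia than in normoxia by 1.81 on this scale, a ratio of intensities of 0.276, and 4 of the 9749 genes kept for comparison had a lower value, so that *ANXA13* ranked 5 from the bottom. Under the knockdown label the difference between hypoxia and normoxia was -0.68, rank 177 from the bottom. In bulk RNA, fewer cells that express a gene and less of its RNA per cell cannot be told apart.

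Between the cell lines *ANXA13* differed far more in normoxia than in hypoxia. The normoxic array labelled HIF2α-KD had a difference of -0.998 from its control on the log2 scale, with a ratio of intensities of 0.494 and rank 54 from the bottom. With the added 16 this value lies just short of the 2-fold line. It passed that line with a pseudocount of 1 (-1.02) and with the arrays centred on their medians (-1.01), and stayed short of it with quantile normalization (-0.95), cyclic loess (-0.94) and a pseudocount of 64 (-0.94). In hypoxia the HIF2α-KD array was higher than the control array by 0.13, a ratio of 1.10. The knockdown difference in hypoxia minus that in normoxia was 1.13. *ANXA13* was the 1 annexin past 2-fold in this measure, as were 2.54% of the genes kept. No test of this difference is possible with 1 array per group, and the normoxic knockdown difference comes from the pair of arrays in which the dim *EPAS1* probe set did not read lower under the knockdown label. The hypoxia difference of control cells does not use that array.

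**Figure D1:**
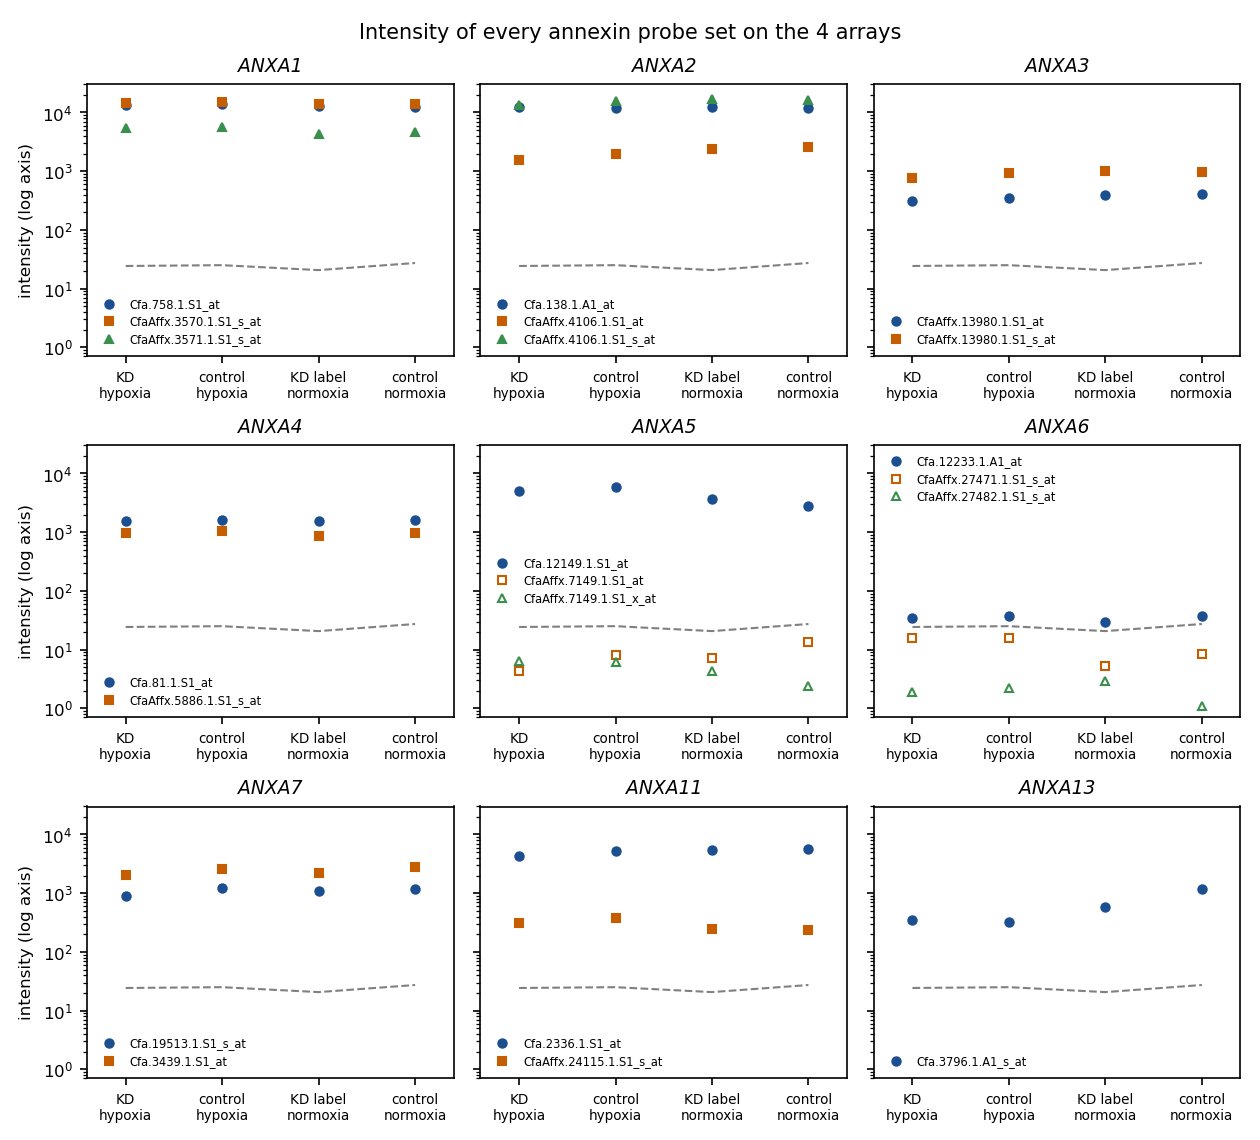
Intensity of each of the 21 annexin probe sets on the 4 arrays (log axis), where each point is a single array, so no error bars are drawn. Filled symbols are the 17 probe sets kept, open symbols the 4 not kept, and the dashed line joins the background level of each array. *ANXA13* reads 323 on the control array in hypoxia, against 1170.3 on the control array in normoxia, *ANXA5* is highest on the hypoxic arrays, and most other genes stay nearly level.

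*ANXA5* was the only one of the 9 genes at least 1.5-fold higher in any comparison at its brightest probe set. It encodes the annexin that binds phosphatidylserine and is widely used to stain dying cells. Its bright probe set, Cfa.12149.1.S1_at, had an intensity of 5131 on the HIF2α-KD array and 5955 on the control array in hypoxia, and of 3688 on the array labelled HIF2α-KD and 2746 on the control array in normoxia. Both hypoxic arrays lie above both normoxic arrays. Hypoxia exceeded normoxia by 1.11 on the log2 scale in control cells, a ratio of 2.17 and rank 226 from the top, and by 0.47 under the knockdown label. The array labelled HIF2α-KD was higher than the control array by 0.42 in normoxia, and the HIF2α-KD array was lower than the control array by 0.21 in hypoxia. The other probe sets of *ANXA5* lay between 2.35 and 13.3, below the background on every array, so the gene rests on 1 probe set.

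*ANXA13* and *ANXA5* thus differed in opposite directions between hypoxia and normoxia, and in both the difference was larger between the control arrays than between the arrays labelled HIF2α-KD. These were also the only members whose 4 values spanned 2-fold or more on the log2(intensity + 16) scale, which 7.01% of all genes kept did. The comparisons within the control line and within the normoxic pair share the control array in normoxia, on which *ANXA13* was highest and *ANXA5* lowest.

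*ANXA1* and *ANXA2* were among the bright genes of these cells, and their brightest probe sets differed by less than 1.5-fold in every comparison. *ANXA1* encodes an inhibitor of inflammation that acts through formyl peptide receptors and binds S100A11. Its brightest probe set had an intensity of 14734 on the HIF2α-KD array and 15196 on the control array in hypoxia, and of 14219.9 on the array labelled HIF2α-KD and 14099.6 on the control array in normoxia. The 3 probe sets were 0.11 to 0.29 higher in hypoxia than in normoxia in control cells and 0.05 to 0.33 higher under the knockdown label. Between the cell lines they differed by -0.13 to 0.06 in normoxia and by -0.09 to -0.04 in hypoxia.

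*ANXA2* encodes the partner of S100A10, with which it forms a complex on membranes that binds actin and plasminogen. Its brightest probe set had an intensity of 13519 on the HIF2α-KD array and 15783 on the control array in hypoxia, and of 17253 on the array labelled HIF2α-KD and 16621 on the control array in normoxia. The dimmest, CfaAffx.4106.1.S1_at, had 1577 and 1985 in hypoxia and 2424 and 2598 in normoxia, in the same order of lines. Both are lowest on the HIF2α-KD array in hypoxia. Under the knockdown label hypoxia differed from normoxia by -0.62 at the dimmest probe set, which is past 1.5-fold, by -0.35 at the brightest and by -0.05 at the third. The highest intensity of any probe set was 18723 to 19831 on these arrays. How fully a difference in *ANXA1* or *ANXA2* shows at such intensities was not tested, and the dimmest *ANXA2* probe set had the largest differences between hypoxia and normoxia of the 3.

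*ANXA7* encodes an annexin that fuses membranes and binds the calcium sensor sorcin. Its brighter probe set had an intensity of 2027 on the HIF2α-KD array and 2630 on the control array in hypoxia, and of 2246 on the array labelled HIF2α-KD and 2795 on the control array in normoxia. The knockdown label was lower at both oxygen levels, by 0.37 in hypoxia and 0.31 in normoxia at this probe set. At the other probe set the differences were -0.47 and -0.11. None of the alternative settings turned the directions of the gene, and none of these differences reached 1.5-fold.

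*ANXA3* and *ANXA4*, the second of which encodes an annexin of secretory and kidney epithelium, each had 2 kept probe sets, neither of which reached 1.5-fold in any comparison. *ANXA3* had 764 and 928 on the HIF2α-KD and control arrays in hypoxia, and 992 and 962 on the arrays of the same labels in normoxia, at its brighter probe set. It was lower in hypoxia than in normoxia by 0.37 and 0.34 under the knockdown label at the 2 probe sets and by 0.05 and 0.23 in control cells. *ANXA4* was the flattest of the annexins, with 1560.5 and 1642 in hypoxia and 1567 and 1605 in normoxia in that order, a span of 0.07 on the log2 scale.

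The probe sets of *ANXA11* disagreed. The gene encodes an annexin that binds the calcium sensor PDCD6 and ties RNA granules to lysosomes. Its bright probe set, Cfa.2336.1.S1_at, had an intensity of 4328 on the HIF2α-KD array and 5149 on the control array in hypoxia, and of 5376 on the array labelled HIF2α-KD and 5707 on the control array in normoxia. The dimmer one, CfaAffx.24115.1.S1_s_at, had 309.6 and 378 in hypoxia and 243.5 and 239.6 in normoxia in that order. In hypoxia relative to normoxia the bright one was lower by 0.15 in control cells and by 0.31 under the knockdown label, whereas the dimmer one was higher by 0.63 and 0.33. Between the cell lines in hypoxia both were lower under the knockdown label, by 0.25 and 0.28. The arrays therefore give no single direction for *ANXA11* with oxygen.

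*ANXA6*, the gene of the largest annexin, which binds endosomes and the plasma membrane, had no bright probe set. Its 3 probe sets lay between 1.11 and 37.4. Only Cfa.12233.1.A1_at passed the filter, with 34.6 on the HIF2α-KD array and 37.4 on the control array in hypoxia, and 29.4 on the array labelled HIF2α-KD and 36.6 on the control array in normoxia. These values lie above the reporters but within the range of the leukocyte genes, so no difference is read for *ANXA6*.

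**Figure D2:**
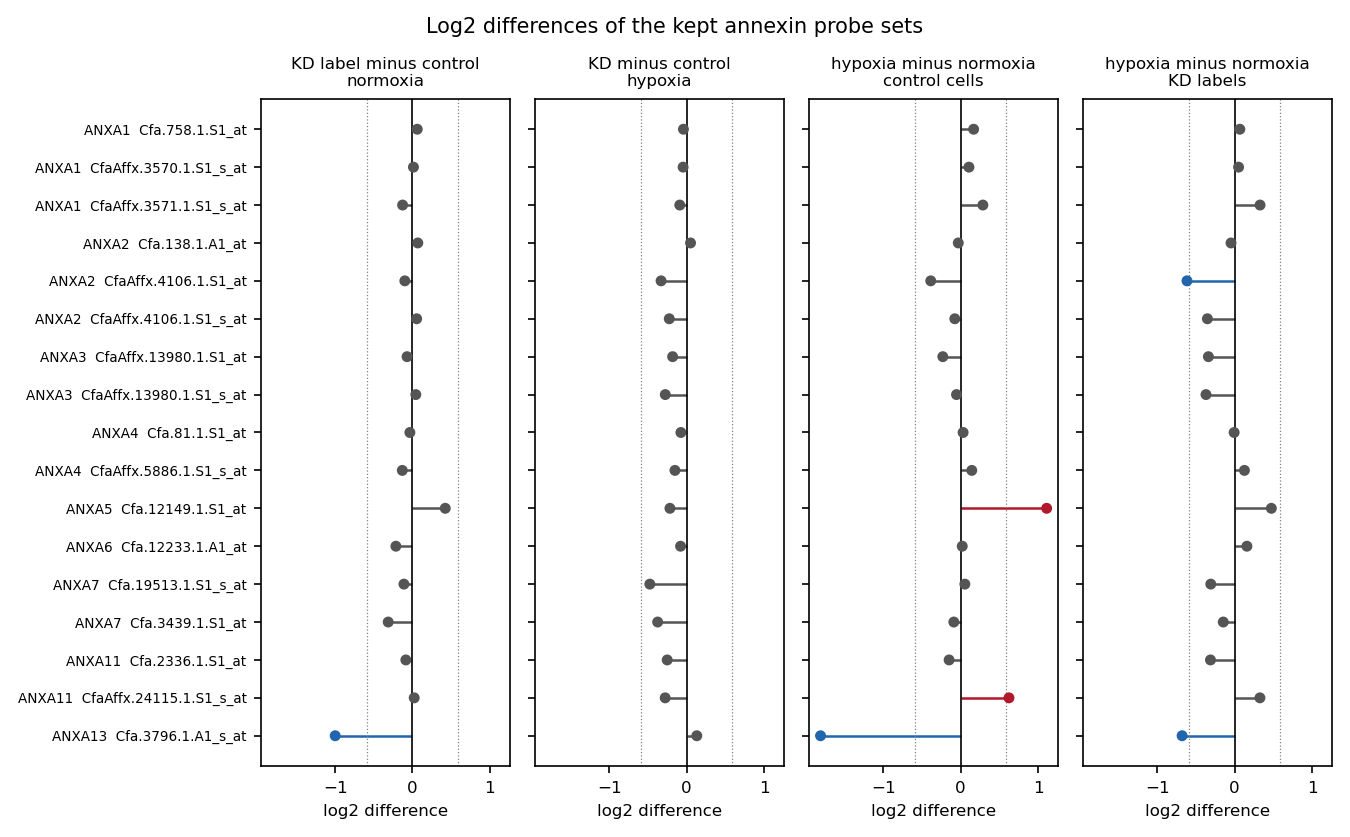
Differences on the log2(intensity + 16) scale of the 17 kept annexin probe sets in the 4 comparisons, 1 point per probe set. Dotted lines mark 1.5-fold, and points at or past them are red where higher and blue where lower. *ANXA13* reaches -0.998 in normoxia and -1.81 between hypoxia and normoxia in control cells, *ANXA5* reaches 1.11 in the same cells, and in hypoxia 15 of 17 probe sets lie below 0 between the cell lines, as do 56.3% of all probe sets kept.

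Counted over the 9 genes, each by its brightest probe set, 1 annexin (*ANXA13*) was at least 1.5-fold lower under the knockdown label in normoxia, against 3.55% of the 9749 genes kept. No annexin was 1.5-fold higher there, against 2.45% of genes. In hypoxia no annexin differed 1.5-fold between the cell lines, against 6.55% of genes. Between hypoxia and normoxia 2 annexins (*ANXA5* and *ANXA13*) differed at least 1.5-fold in control cells, against 14.5% of genes, and the same 2 at least 2-fold, against 3.59%. Under the knockdown label 1 (*ANXA13*) differed 1.5-fold, against 8.15% of genes. With 9 genes a single gene moves such a share widely, and nothing about the family as a whole is read from them.

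The median difference over the annexins was -0.03 between the normoxic arrays (knockdown label minus control), against -0.04 over all genes kept. In hypoxia it was -0.21, against -0.04. Here 8 of 9 annexins lay below 0, all but *ANXA13*, and 55.7% of all genes did. The 8 include the dim *ANXA6* (-0.08), for which no difference is read. Between hypoxia and normoxia the median was -0.05 in control cells, against 0.03 over all genes, and -0.15 under the knockdown label, against 0.02. With the mean of each gene's probe sets the annexin medians between hypoxia and normoxia were 0.02 and 0.01, so no direction is read from them, and with quantile normalization the median between the lines in hypoxia was -0.11. The lower values in hypoxia were small for each gene, from -0.37 (*ANXA7*) to -0.04 (*ANXA1*), and all came from a single pair of arrays.

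**Figure D3:**
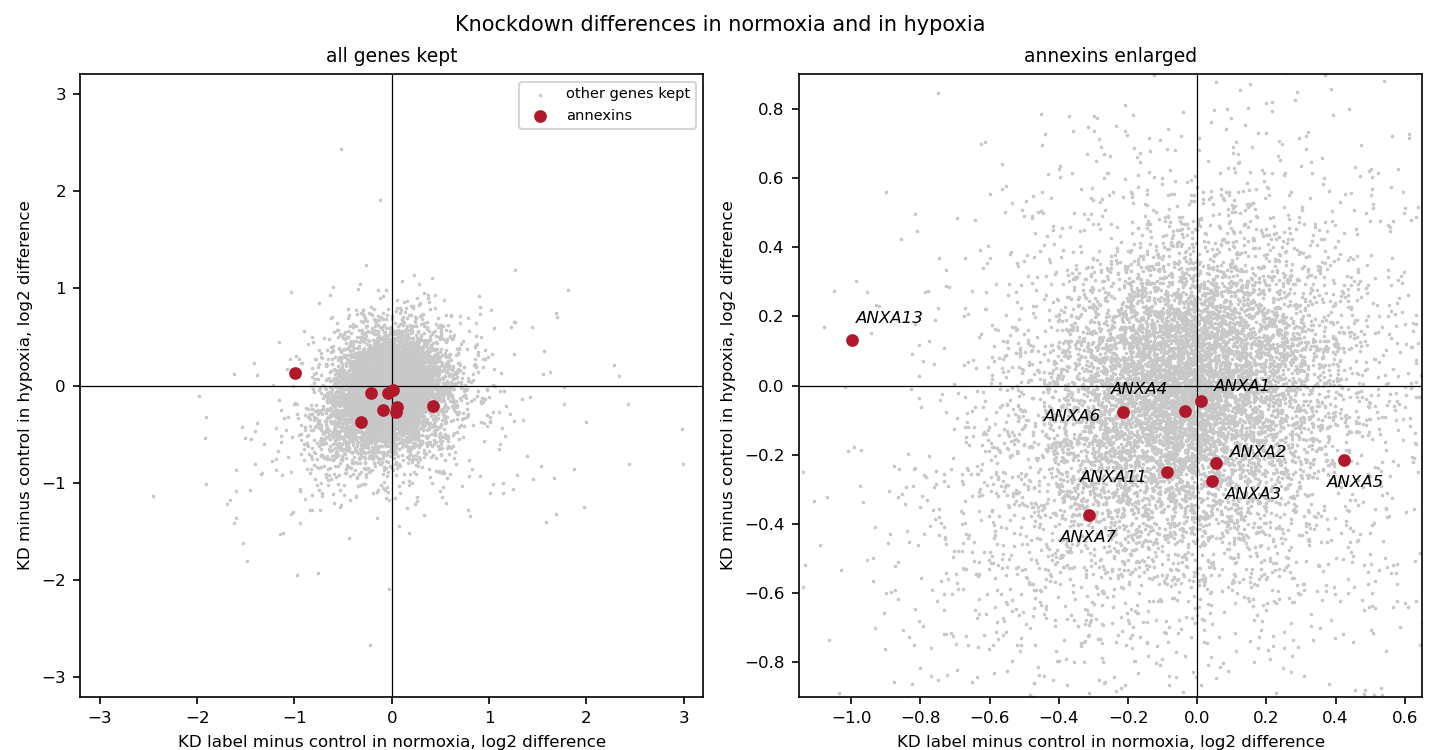
Each point is 1 of 9749 genes, with the knockdown label minus control in normoxia on the horizontal axis and in hypoxia on the vertical axis, both as differences of log2(intensity + 16). The 9 annexins are red, and the right panel enlarges the centre. *ANXA13* (-0.998 and 0.13) lies at the left edge of the cloud, *ANXA5* (0.42 and -0.21) to the right, and the other 7 near the centre and below 0 on the vertical axis.

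Other annexins on the array are not among the 9. The platform annotation has 2 probe sets of *ANXA8L1*, the name given there and in RefSeq to the canine gene related to *ANXA8*. The first had an intensity of 154 on the HIF2α-KD array and 242 on the control array in hypoxia, and of 80.8 on the array labelled HIF2α-KD and 89.9 on the control array in normoxia. The second had 177 and 222 in hypoxia and 136 and 141 in normoxia in that order. Both were higher in hypoxia than in normoxia, by 1.28 and 0.60 in control cells and by 0.81 and 0.35 under the knockdown label. Both were lower on the HIF2α-KD array than on the control array in hypoxia, by 0.60 and 0.30. *ANXA10* had 1 of 4 probe sets above the background, with 416 on the HIF2α-KD array and 608 on the control array in hypoxia, and 278 on the array labelled HIF2α-KD and 454 on the control array in normoxia. The knockdown label was lower at both oxygen levels, by 0.53 in hypoxia and 0.68 in normoxia. *ANXA9* was dim, at 20.1 to 62.5 over 4 probe sets, and its probe sets differed in direction.

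The S100 partners best known to bind annexins were bright. *S100A10*, the partner of *ANXA2*, had an intensity of 14056 on the HIF2α-KD array and 15067 on the control array in hypoxia, and of 14644 on the array labelled HIF2α-KD and 14657 on the control array in normoxia. *S100A11*, the partner of *ANXA1*, had 11528 and 13376 in hypoxia and 12684 and 11812 in normoxia in that order. *S100A6*, which binds several annexins, had 18228 and 18278 in hypoxia and 18467 and 18064 in normoxia. The largest difference of these 3 brightest probe sets was -0.21, for *S100A11* between the cell lines in hypoxia. They lie close to the top of the range, as *ANXA1* and *ANXA2* do, and a dimmer *S100A10* probe set (950 to 1232) differed more, by 0.37 for hypoxia minus normoxia in control cells and by -0.35 between the lines in hypoxia.

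Some other S100 genes varied more. Of 11 S100 genes kept, which include *S100A10*, *S100A11* and *S100A6*, 10 were higher in hypoxia than in normoxia in control cells, as were 53.2% of all genes. At least 2-fold higher were 2, *S100P* (1.23) and *S100A2* (1.27), which encode S100 proteins of epithelial tissues, against 3.59% of all genes past 2-fold in either direction. Others of the 10 differed little, such as *S100A6* (0.02) and *S100A10* (0.04). Under the knockdown label 4 of the 11 were higher in hypoxia than in normoxia, as were 53.2% of all genes, and the median was -0.05. *S100P* had 1866 on the HIF2α-KD array and 2757 on the control array in hypoxia, and 1122 on the array labelled HIF2α-KD and 1166 on the control array in normoxia. In hypoxia 10 of the 11 were lower on the HIF2α-KD array than on the control array, with a median of -0.21, against 55.7% of all genes and a median of -0.04. *S100A14* had the largest of these differences, -0.81, from 1747 on the HIF2α-KD array against 3073 on the control array. Between the cell lines in normoxia none of the 11 differed 1.5-fold at its brightest probe set, against 6.0% of all genes. A dim second probe set of *S100A16* differed by -0.62 there, at intensities of 19.5 on the array labelled HIF2α-KD and 38.7 on the control array.

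Direct ligands of single annexins were followed next. *SRI*, which encodes the *ANXA7* partner sorcin, had 4097 on the HIF2α-KD array and 3769 on the control array in hypoxia, and 3399 on the array labelled HIF2α-KD and 4085 on the control array in normoxia. *PDCD6*, for the partner of *ANXA7* and *ANXA11*, differed by -0.18 to -0.03 over the 4 comparisons at its brightest probe set. *NEDD4* encodes a ubiquitin ligase that binds *ANXA13* in MDCK cells. Its single probe set had 37.4 on the HIF2α-KD array and 42.1 on the control array in hypoxia, and 115 on the array labelled HIF2α-KD and 32.8 on the control array in normoxia. It was high under the knockdown label in normoxia alone, by 1.42 over the control array, and at the level of the leukocyte genes on the other three.

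*AHNAK*, for a giant scaffold protein that binds the *ANXA2* and S100A10 complex, gave different directions by probe set. At the brightest it had 1300.45 on the HIF2α-KD array and 2068 on the control array in hypoxia, and 2001 on the array labelled HIF2α-KD and 2867 on the control array in normoxia. This probe set was lower under the knockdown label at both oxygen levels, by 0.66 in hypoxia and 0.52 in normoxia, and lower in hypoxia than in normoxia in control cells, by 0.47. The next probe set, at 575 to 1390, was lower in the same comparisons, by 0.65, 0.60 and 0.60. At a dimmer one hypoxia exceeded normoxia by 1.36 in control cells, at intensities of 339 and 122. There the knockdown label was higher than control in normoxia, by 0.58. The lower value under the knockdown label in hypoxia was shared by all of these, with -0.66, -0.65 and -0.62.

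**Figure D4:**
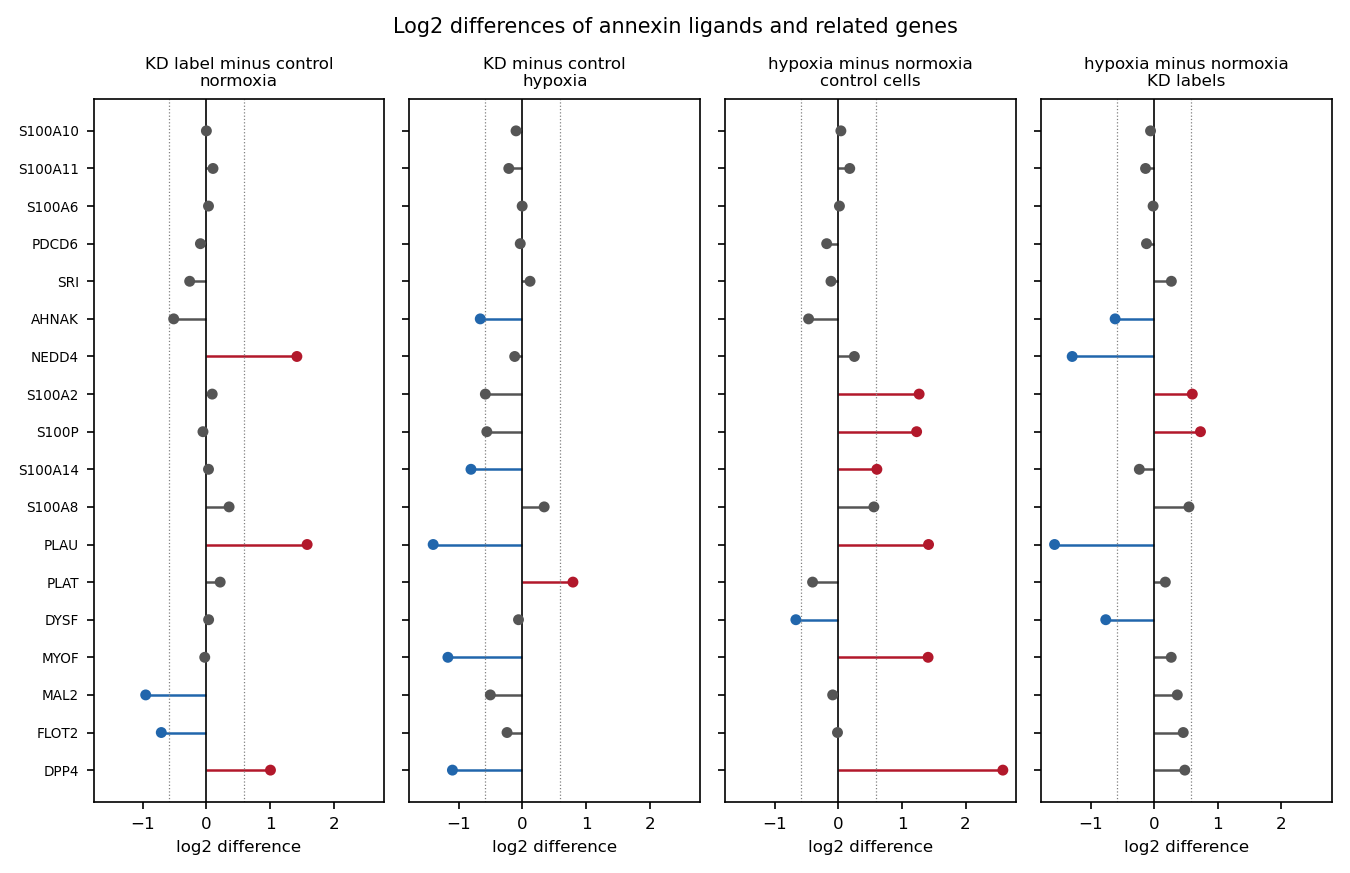
Differences on the log2(intensity + 16) scale of annexin ligands and related genes in the 4 comparisons, 1 point per gene at its brightest probe set. Dotted lines mark 1.5-fold, and points at or past them are red where higher and blue where lower. *S100A10*, *S100A11* and *S100A6* stay within 0.21 of 0, whereas *NEDD4* and *PLAU* are higher under the knockdown label in normoxia, by 1.42 and 1.58.

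The plasminogen activator gene *PLAU*, whose product makes the plasmin that the *ANXA2* complex helps to form, had 169.8 on the HIF2α-KD array and 476 on the control array in hypoxia, and 535 on the array labelled HIF2α-KD and 168 on the control array in normoxia. The knockdown label was thus lower in hypoxia, by 1.40, and higher in normoxia, by 1.58. *PLAT*, for the tissue activator, was dim at 9.85 to 28.8.

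Among 25 kept genes of apical transport and membrane rafts, the pathway in which *ANXA13* is known from MDCK cells, 2 were at least 1.5-fold lower and 1 higher under the knockdown label in normoxia, against 3.55% and 2.45% of all genes. The median was -0.02, against -0.04 over all genes. The 2 lower genes were *MAL2*, for a raft protein of transcytosis, and *FLOT2*, for a flotillin. *MAL2* had 784 on the HIF2α-KD array and 1118 on the control array in hypoxia, and 606 on the array labelled HIF2α-KD and 1191 on the control array in normoxia, a difference of -0.96 in normoxia. *FLOT2* differed by -0.71 there at its brightest probe set, by -0.41 at the next and by 0.28 at the dimmest. Between hypoxia and normoxia in control cells the brightest probe sets of *MAL2* and *FLOT2* differed by -0.09 and -0.01, against -1.81 for *ANXA13*. The higher one was the apical peptidase gene *DPP4* (1.01). It had 179 on the HIF2α-KD array and 403 on the control array in hypoxia, and 124 on the array labelled HIF2α-KD and 53.7 on the control array in normoxia. The last of these lies little above the leukocyte genes. A second *DPP4* probe set read 44.8 on that control array and differed by 0.98 between the lines in normoxia. In control cells 2 of the 25 genes were at least 1.5-fold higher in hypoxia, *DPP4* (2.59) and the GTPase gene *RAB8A* (0.97), which was dim at 21.8 to 58.0, and none was lower, against 14.5% of all genes past 1.5-fold in either direction.

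Among 20 kept genes of calcium-dependent membrane binding and repair, 2 were at least 1.5-fold higher and 1 lower in hypoxia than in normoxia in control cells, a share close to the 14.5% of all genes. *MYOF*, for the ferlin myoferlin, had 631 on the HIF2α-KD array and 1442 on the control array in hypoxia, and 522 on the array labelled HIF2α-KD and 532 on the control array in normoxia. *DYSF*, for the related dysferlin, which works with annexins in membrane repair of muscle, had 324 and 339 in hypoxia and 561 and 547 in normoxia in that order. The 2 ferlin genes thus differed in opposite directions with oxygen, *MYOF* by 1.41 and *DYSF* by -0.67 in control cells. In hypoxia *MYOF* was lower on the HIF2α-KD array by 1.17, whereas *DYSF* differed by -0.06.

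The genes with the profile most like that of *ANXA13* were sought by the distance between log2 values centred over the 4 arrays. Genes whose symbol starts with LOC were left out. Of the others kept, the nearest 5 were *OR10D1K* (0.408), *CGN* (0.448), *ACP6* (0.500), *CIRBP* (0.506) and *SMG1* (0.531), and the nearest annexin was *ANXA11* (1.23). *OR10D1K*, an olfactory receptor gene, lay above the background on 1 array alone, the control array in normoxia (34.9). *SMG1* had 33.1 on the HIF2α-KD array and 32.15 on the control array in hypoxia, and 45.35 on the array labelled HIF2α-KD and 91.1 on the control array in normoxia. All but the last of these lie about at the level of the leukocyte genes. *CGN* encodes cingulin, a protein of the tight junction, and had 413 on the HIF2α-KD array and 508 on the control array in hypoxia, and 619 on the array labelled HIF2α-KD and 1231 on the control array in normoxia. *ACP6*, for a lysophosphatidic acid phosphatase, had 1709 and 1412 in hypoxia and 2033 and 3516 in normoxia in that order. *CIRBP*, for a cold-inducible RNA-binding protein, was lower in hypoxia than in normoxia by 1.98 in control cells. A likeness over 4 arrays describes these arrays and does not show that the genes share a control.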

How the data were processed

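Biotin-labelled cRNA from MDCK cells was hybridised to 4 Affymetrix canine arrays, 1 per condition. The deposited table holds a linear intensity for each of 42924 probe sets, and how the authors summarized, background-corrected and scaled the values is not given in the sources used here. Gene names came from the platform annotation, in which 29254 probe sets carry 1 symbol. Differences were taken on log2(intensity + 16). Probe sets whose highest intensity was under 28.75 (the overall median) were dropped. This left 9749 genes, each represented by its brightest kept probe set. Counts used 1.5-fold and 2-fold. Members and lists were chosen with earlier results of these arrays known. Genes named were every annexin probe set, direct annexin ligands, up to 4 genes of each list by size of difference, and the 5 nearest to *ANXA13*. Genes whose symbol starts with LOC were left out of the search for the nearest. Other settings were quantile, cyclic loess and median scaling (limma 3.58.1, R 4.3.3), pseudocounts of 1 and 64, other filters, and averaging over the probe sets of a gene. Python 3.11.15, numpy 2.4.6 and pandas 2.3.3 were used. The calculation of differences was checked on simulated data with changes planted in bright probe sets alone. That check says nothing about dim probe sets or about differences that rest on 1 array per group. No genome was used. The number of arrays limits the precision.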

Additional observations from a re-analysis of the deposited data

Results flagged for a closer look

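In 8 of 58 genes the difference of the knockdown label from control had opposite signs in hypoxia and in normoxia, with at least 2-fold between these differences. The 58 were the annexins, the direct annexin ligands, the 5 genes nearest to *ANXA13* and kept members of the marker lists. Up to 4 genes of each other list, picked by size of difference, were included, and not all of these are named here. Of all 9749 genes, 2.32% did so, but the genes taken from most lists were picked for large differences, so the shares cannot be compared. None was tested, since each rests on 1 array per group, and all draw on the same 4 arrays. *ANXA13* differed by 0.13 in hypoxia and -0.998 in normoxia, a difference of 1.13. *ACP6*, chosen for its likeness to *ANXA13*, differed by 0.27 and -0.79, a difference of 1.06. *DPP4* differed by -1.10 and 1.01, a difference of -2.11. *NEDD4*, on a dim probe set, differed by -0.12 and 1.42, a difference of -1.54. *PLAU* differed by -1.40 and 1.58, a difference of -2.99. *EPAS1*, also dim, differed by -1.45 and 0.08, a difference of -1.52. The hypoxia response genes *ADM* (-0.91 and 0.13) and *NDRG1* (-1.52 and 0.18) gave differences of -1.04 and -1.69. *NDRG1* lay under the background on both normoxic arrays (18.4 under the knockdown label and 14.4 on the control array), so its direction in normoxia is not read. The spread of the differences between the lines over all genes kept was 0.26 in hypoxia and 0.25 in normoxia. The smaller difference of *ANXA13* and *NEDD4* in hypoxia, and of *EPAS1* and *ADM* in normoxia, lay within that spread. These directions are not read either.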

How the results depend on the processing

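No paired analysis was possible because each group has 1 array. Changes between settings were judged against the spread of the differences over all genes kept, 0.25 to 0.36 on the log2 scale, which holds biology as well as noise. For *ANXA13* and the annexin medians, all 62 values under the alternatives stayed within it of the reported value. The spread is larger than each annexin median, so a median could reach 0 and still count as unchanged. Averaging over probe sets cannot change *ANXA13*, which has 1 probe set. Dropping the filter leaves the annexin medians and counts as they were, since all 9 genes were already kept. *ANXA13* ranged from -1.91 to -1.68 in control cells for hypoxia minus normoxia, and from -1.02 to -0.94 between the lines in normoxia. Of 192 values for the other annexins 2 moved, both for *ANXA11* with the mean of its probe sets, to 0.24 in control cells and 0.01 under the knockdown label between hypoxia and normoxia, since its probe sets disagree. The 32 counts were unchanged: the annexins past 1.5-fold numbered 1, 0, 2 and 1 in the 4 comparisons under all 8 alternatives. In hypoxia 8 of 9 annexins, the dim *ANXA6* among them, lay below 0 between the lines under each setting that kept 9. The share of all genes below 0 was 45.4% to 56.0% over the settings with the main filter. With a filter at the 75th percentile of all values it was 58.8%, and 7 of the 8 annexins kept lay below 0. The annexin median between the lines in hypoxia ranged from -0.22, with that filter, to -0.11. In the other 3 comparisons it crossed 0 under some setting, at -0.04 to 0.01, -0.08 to 0.02 and -0.23 to 0.01. The share of genes past 1.5-fold in control cells was 20.0% with a pseudocount of 1 and 8.12% with 64, against 14.5%. Bright probe sets near the top of the range and dim ones near the reporters limit what the arrays can show.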
